A study of Sus scrofa with 11 samples.

Results

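Stented porcine coronary arteries kept in a bioreactor under the stronger flow mark were compared with stented arteries kept there without flow. The members are the libraries whose labels give these 2 conditions, 3 stented high-flow and 2 stented static libraries, 5 of the 11 in the series. The other 6 are 2 native arteries, 2 unstented high-flow cultures and 2 unstented low-flow cultures, and they are used here for the shared estimate of spread and for reference levels. RNA was taken from whole vessel tissue, so smooth muscle, endothelium, adventitia and attached fat all contribute to each value, and fewer cells of a type and less RNA per cell cannot be told apart. Both groups carry a stent, so the contrast is of flow only within stented vessels. The sources used here do not state genotype, breed, age, sex, the type of stent or, in words, the length of culture. Nothing in the labels says whether replicate libraries are from different animals. The p-values therefore reflect the spread among these samples alone, and that spread may be technical.

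Flow exerts shear stress on the endothelium and, through pressure and stretch, mechanical load on the smooth muscle below it. After stenting, arterial smooth muscle cells can leave their contractile state, divide, and secrete cytokines and extracellular matrix, the process that forms neointima. Secreted factors of the interleukin-6, activin and Wnt families are among the signals known to act on these cells.

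In the text below, flow libraries are the 3 stented high-flow ones and static libraries the 2 stented static ones, with values in the order of their replicate numbers. Levels are CPM, counts divided by the scaled size of their library. Changes are log2 fold changes of flow over static ± standard error, and adjusted p-values come from the quasi-likelihood test of edgeR, Benjamini-Hochberg adjusted over all 15348 genes tested. A gene is said to have risen or fallen where its adjusted p is under 0.05.

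The libraries differed in more than flow. The static libraries held 21864217 and 14229777 counts and the flow libraries 13496636, 19739991 and 22214011. Over 18 measured adipocyte markers the mean log2 CPM was 6.54 in static replicate 1 and 2.30 in static replicate 2, against 1.27 to 1.37 in the flow libraries and 5.67 to 6.14 in native vessels. Endothelial, macrophage and lymphocyte marker lists were also highest among the stented libraries in static replicate 1, and contractile smooth muscle markers were lowest there, with 5.79 against 7.65 to 8.81 in the other 4. Their part in the results was not tested, so results are given with and without that library. A fit without either static replicate compares the flow libraries with 1 static library. A call lost there does not by itself show that the change rested on the library left out. The smooth muscle gene MYH11 and the endothelial gene PECAM1 were read in every stented library, at 65.5 and 103.5 CPM or more. The lowest MYH11 was in static replicate 1. Native vessels read 11140 and 12610 CPM for MYH11 and 388 and 489 CPM for PECAM1. Their contractile markers averaged 10.51 and 10.75 log2 CPM, above every stented library.

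The labels differ too. They carry a d suffix of 3 on both static libraries and of 7 on flow replicate 3, with no meaning given, so that if it counts days, flow and time in culture cannot be told apart. Each label also holds a number, and native replicate 2 and flow replicate 1 share the number 25. Whether these 2 libraries come from the same animal is not stated. The number pairs that end the labels fall into 2 ranges. Static replicate 1 and flow replicate 3 share one of them, which no other library has. Y-linked transcripts differed between the groups as well. KDM5D, which has no position in the RefSeq table used here, was read at 20.4, 10.9 and 9.98 CPM in the flow libraries and 0 in both static ones, at least 181-fold higher against 3 counts over the static group. EIF1AY was at least 243-fold higher by the same reckoning. Both were chosen after their values were seen. The presence of Y-linked transcripts and flow cannot be told apart in these libraries, and the genes named below are placed on autosomes unless stated.

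**Figure D1:**
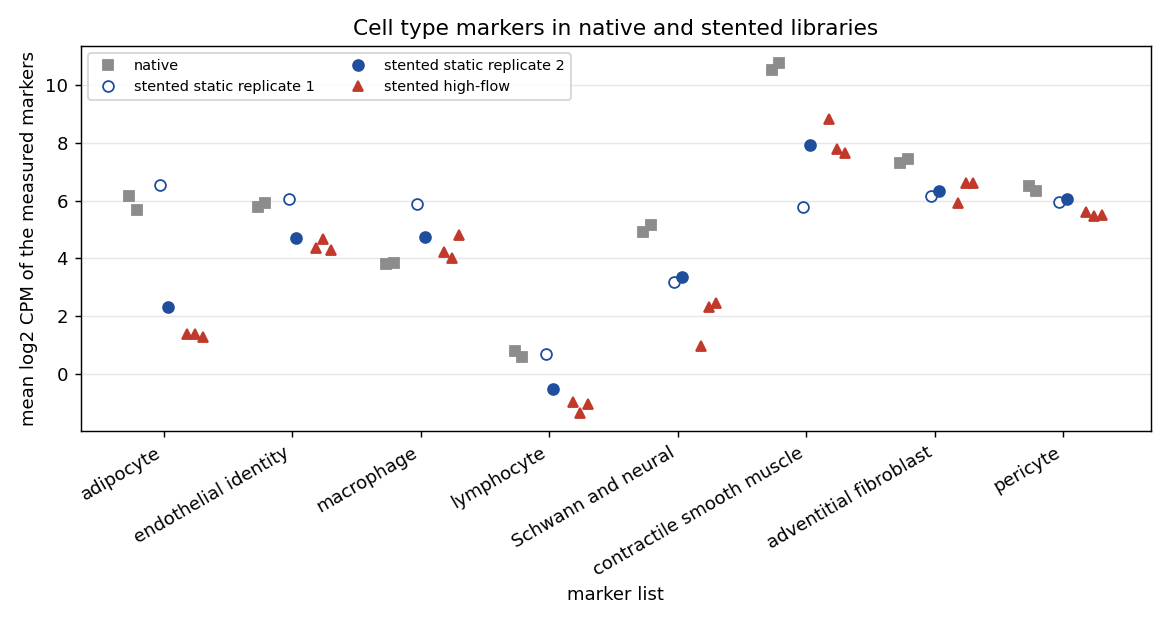
Mean log2 CPM of the measured markers (vertical axis) of 8 cell types (horizontal axis) in native libraries (squares), static replicate 1 (open circles), static replicate 2 (filled circles) and flow libraries (triangles), 1 point per library. Static replicate 1 has adipocyte markers at 6.54, near the native 5.67 to 6.14, while the other stented libraries lie between 1.27 and 2.30.

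Flow and static libraries differed in 438 genes, 181 higher (1.18% of genes tested) and 257 lower (1.67%) under flow. Among 11092 autosomal genes 331 were called (2.98%). All 3 flow libraries lay above both static ones for 2217 genes (14.4%) and below both for 2407 (15.7%), called or not. The static libraries did not contribute equally. Static replicate 1 was at least 2 times static replicate 2 for 111 of the 257 genes that fell and 13 of the 181 that rose, against 2013 of all 15348 tested. The reverse held for 14 of the falls and 35 of the rises, against 2054 of all. The static libraries were within 2-fold of each other for 132 of the falls and 126 of the rises, against 11230 of all. Without static replicate 1 the count was 95 genes (0.619%), 36 higher and 59 lower, without static replicate 2 it was 784, and without flow replicate 2 it was 175. A set of 64 genes, 27 higher and 37 lower, was called whichever of the 5 libraries was left out.

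Of the 12 largest rises among well-measured autosomal genes, 5 are described first and the others with their lists. PRSS35 (chromosome 1, 82714880 to 82734883 in Sscrofa11.1), a protease-like protein thought to be catalytically inactive, read 124, 72.7 and 70.2 CPM under flow and 0.474 and 0.608 CPM in static vessels. Native vessels were at 0.456 and 0.460 CPM, so the static libraries stood near the native level and the flow libraries far above both. PRSS35 rose by 7.36 ± 0.77 (edgeR adjusted p = 0.00243), a 165-fold difference. The adipokine-like protein C1QTNF3 (chromosome 16, 20032973 to 20059905) read 79.8, 30.7 and 141 CPM under flow and 0.474 and 1.58 CPM in static vessels, an 84.7-fold difference (adjusted p = 0.00529). CORIN (chromosome 8, 37530812 to 37811226), the membrane protease that activates atrial natriuretic peptide, read 76.3, 41.9 and 83.2 CPM against 1.54 and 2.80 CPM and rose by 4.97 ± 0.53 (adjusted p = 0.00249). For these 3 genes every flow library was more than 10 times every static one, and all 3 stayed called whichever library was left out. The protease inhibitor SLPI rose 16.3-fold and the iron-binding surface protein MELTF 16.03-fold (adjusted p = 0.0118 and 0.00731), and without static replicate 1 their adjusted p-values were 0.0868 and 0.0598.

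**Figure D2:**
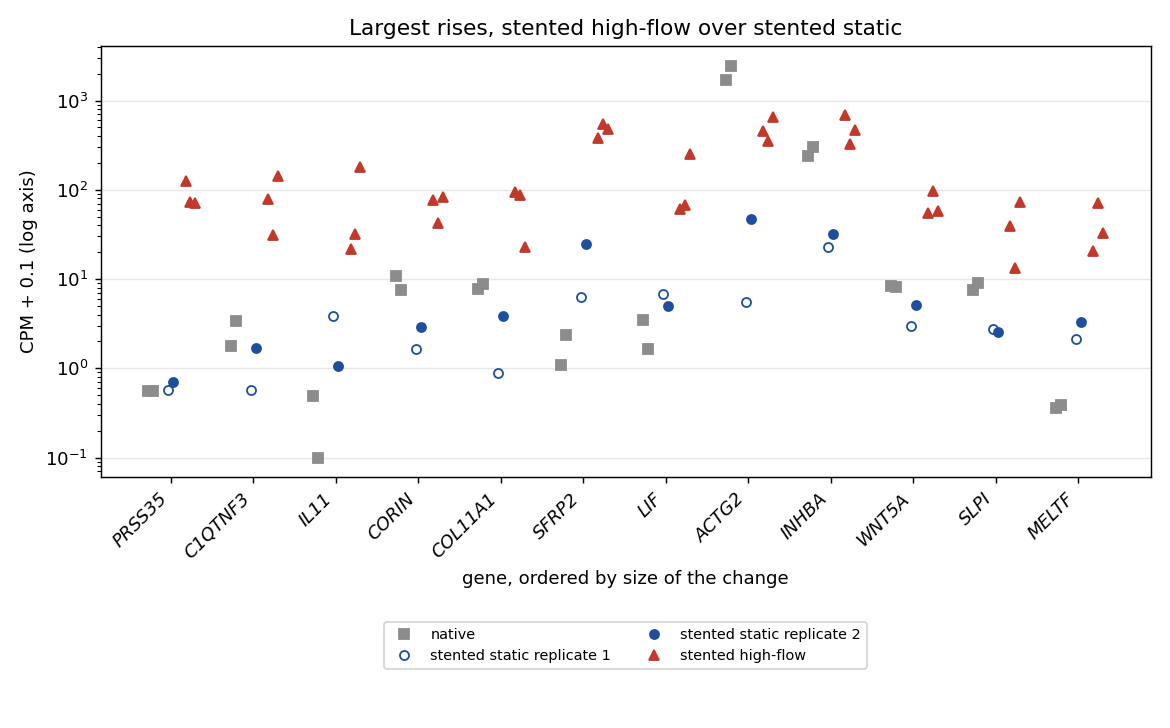
CPM + 0.1 on a log axis (vertical) of the 12 autosomal genes with the largest rises (horizontal axis), 1 point per library, for native (squares), static replicate 1 (open circles), static replicate 2 (filled circles) and flow libraries (triangles). The genes were chosen among those with the 3 flow libraries above both static ones, and for ACTG2 native vessels lie above all of them.

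Cytokine genes were among the rises. Of 24 measured inflammatory cytokines and chemokines 7 rose and 1 fell (33.3% called, against 2.85% of all genes), and the list's median log2 fold change was 1.13, against 0.01 over all genes. LIF, a cytokine that signals through the shared receptor subunit gp130, read 60.5, 67.8 and 249 CPM under flow and 6.64 and 4.87 CPM in static vessels, a rise of 4.44 ± 0.72 (edgeR adjusted p = 0.0125). IL11, a fibroblast-activating member of the same family, read 21.6, 31.5 and 182 CPM under flow and 3.75 and 0.973 CPM in static vessels, a rise of 5.02 ± 1.15 (adjusted p = 0.0448). In both genes flow replicate 3 was the highest library. The groups did not overlap, as for all 181 genes that rose. IL6 read 8.04, 13.7 and 48.2 CPM against 2.89 and 2.80 CPM and rose by 3.04 ± 0.71 (adjusted p = 0.0485), while native vessels stood at 23.3 and 31.1 CPM, within the range of the flow libraries. The receptor subunit gene IL6ST, encoding gp130, was chosen after its values were seen and overlapped between the groups, at 121 to 354 CPM under flow and 91.1 and 204 CPM in static vessels (adjusted p = 0.411).

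Further members of the list that rose were IL1A, IL33, PTGS2 and CXCL8. IL1A, an alarmin, read 3.59, 2.52 and 7.26 CPM under flow and 0.198 and 0.122 CPM in static vessels (4.71 ± 0.78, edgeR adjusted p = 0.0134). IL33, a nuclear alarmin of the same family, chosen like PTGS2 after its values were seen, read 293, 391 and 239 CPM against 36.9 and 65.1 CPM (2.59 ± 0.45, adjusted p = 0.0169). PTGS2, the inducible cyclooxygenase, read 187, 99.2 and 117 CPM against 8.30 and 8.76 CPM (3.98 ± 0.65, adjusted p = 0.0134), with native vessels between the groups at 54.8 and 60.2 CPM. The neutrophil chemokine CXCL8 rose by 4.76 ± 0.90 (adjusted p = 0.0231). The lymphoid chemokine CCL21 was the member that fell, from 196.3 and 4.32 CPM in static vessels to between 0.144 and 1.68 CPM, and its level in static replicate 1 was the high one. When static replicate 1 was left out, none of these cytokine genes was called, with adjusted p from 0.0809 for LIF to 0.265 for IL6 and 0.424 for CCL21, although the median of the list was then 2.02. IL11, IL6 and CXCL8 also lost their calls without static replicate 2 (adjusted p = 0.117, 0.117 and 0.0625), IL11 and IL6 without flow replicate 2 (0.0608 and 0.0668), and IL11 without flow replicate 3 (0.0518). CCL21 also lost its call when any 1 flow library was left out (0.0561 to 0.0851).

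Some growth factor genes chosen after their values were seen were higher, while VEGFA did not pass the test. No growth factor list was set beforehand, so no share of them is given beside the 1.18% of all genes that rose. AREG, a ligand of the epidermal growth factor receptor, was almost absent from static vessels, with 2 counts in both libraries together against 831 in the flow libraries, a ratio of pooled CPM of 327 (95% interval 90.1 to 2701, counting error only). AREG read 4.88, 18.7 and 20.1 CPM under flow (edgeR adjusted p = 0.00748). Its receptor gene EGFR overlapped between the groups, at 63.8 to 145 CPM under flow and 90.8 and 174 CPM in static vessels, whereas ERBB3, a related receptor, fell by 1.85 ± 0.40 on the log2 scale (adjusted p = 0.0365). The lymphangiogenic factor VEGFC rose by 1.93 ± 0.34, the mesenchymal mitogen PDGFC by 1.89 ± 0.42 and the secreted neuropeptide precursor VGF by 3.83 ± 0.82 (adjusted p = 0.0169, 0.0427 and 0.0356). VEGFA, the hypoxia-inducible angiogenic factor, overlapped between the groups at 633 to 1271 CPM under flow and 887 and 472 CPM in static vessels (adjusted p = 0.651). AREG, EGFR, ERBB3, VEGFC, PDGFC and VGF were chosen after their values were seen. In the fit without static replicate 1, the adjusted p was 0.0621 for AREG, 0.138 for VEGFC, 0.233 for VGF, 0.285 for PDGFC and 0.315 for ERBB3. PDGFC, VGF and ERBB3 also lost their calls without flow replicate 1 (0.0587, 0.0501 and 0.0681) or 2 (0.112, 0.0672 and 0.0538), and ERBB3 without flow replicate 3 (0.0721).

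In the TGF-beta and BMP list 3 of 26 measured genes rose and 0 fell (11.5% called), with a median log2 fold change of 0.57. INHBA, the subunit of activin A, read 690, 324 and 463 CPM under flow and 22.7 and 32.2 CPM in static vessels. Native vessels read 241 and 303 CPM, so the static libraries were the low ones. INHBA rose by 4.17 ± 0.47 (edgeR adjusted p = 0.00291) and was called whichever library was left out. The gene of the activin-binding protein follistatin, FST, chosen after its values were seen, overlapped between the groups (9.76, 12.01 and 24.97 CPM against 6.09 and 10.6 CPM, adjusted p = 0.344). LTBP2, a matrix protein related to the latent TGF-beta binding proteins, rose by 2.57 ± 0.49 and the BMP-responsive inhibitor ID4 by 1.29 ± 0.29 (adjusted p = 0.0242 and 0.0441). Neither was called without static replicate 1 (0.130 for LTBP2 and 0.317 for ID4) or flow replicate 2 (0.0548 and 0.0784), and ID4 lost its call without flow replicate 1 or 3 too (0.0616 and 0.0716).

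Of 23 measured Wnt pathway genes 5 rose and 2 fell (30.4% called), with a median of 0.53. The noncanonical ligand WNT5A read 54.8, 96.8 and 58.5 CPM under flow and 2.85 and 5.05 CPM in static vessels (4.16 ± 0.69, edgeR adjusted p = 0.0134). WNT5B, its close relative, read 27.4, 61.9 and 39.1 CPM against 9.09 and 5.41 CPM (2.56 ± 0.40, adjusted p = 0.0115). The secreted antagonists moved in both directions. SFRP2 read 380.7, 547 and 477 CPM under flow against 6.17 and 24.9 CPM (4.92 ± 0.82, adjusted p = 0.0147), and native vessels were lower still, at 0.977 and 2.24 CPM. SFRP1 rose by 2.86 ± 0.40 (adjusted p = 0.00731) and DKK3 by 1.31 ± 0.24 (adjusted p = 0.0188), while SFRP5 fell by 3.62 ± 0.82 (adjusted p = 0.0442). The receptor gene FZD4 was lower under flow, at 156, 146 and 77.4 CPM against 404 and 408 CPM, and fell by 1.68 ± 0.31 (adjusted p = 0.0199). WNT5B, chosen like DKK3 and FZD4 after its values were seen, stayed called whichever library was left out. Without static replicate 1 the others gave adjusted p from 0.0598 for SFRP1 to 0.570 for SFRP5, with 0.0797 for FZD4, 0.0803 for SFRP2, 0.106 for WNT5A and 0.156 for DKK3. SFRP5 was read at 54.6 CPM in static replicate 1 and 5.41 CPM in static replicate 2, and also lost its call when any 1 flow library was left out (0.0796 to 0.0890). FZD4 was not called without flow replicate 2 (0.0509).

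Matrix genes were mostly higher under flow, with few past the test. Of 18 measured genes of the synthetic smooth muscle and matricellular list 5 rose and 0 fell (27.8% called, median 1.76), and 17 of the 18 had positive log2 fold changes. Of 14 fibrillar collagen genes 2 rose and 0 fell (14.3% called, median 1.54, or 1.08 without static replicate 1). Of 19 hyaluronan and proteoglycan genes 3 rose and 0 fell (15.8% called, median 1.05, or 0.83 without static replicate 1). Over all genes 2.85% were called. VCAN is counted in both the matricellular and the proteoglycan list. Fibronectin, FN1, read 21060, 42450 and 18240 CPM under flow and 1797 and 6107 CPM in static vessels, with native vessels at 1495 and 1449 CPM. FN1 rose by 2.79 ± 0.65 (edgeR adjusted p = 0.0468), but it lost its call when any library but static replicate 2 was left out (adjusted p = 0.0501 to 0.260). The fibrillar collagen COL11A1 read 93.5, 87.9 and 22.8 CPM against 0.790 and 3.71 CPM and rose by 4.96 ± 1.02 (adjusted p = 0.0312), and COL5A2 rose by 1.71 ± 0.40 (adjusted p = 0.0488). The main collagen of the artery wall, COL1A1, read 15020, 28860 and 44630 CPM against 7555 and 13850 CPM, and did not pass the test (1.46 ± 0.55, adjusted p = 0.178).

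Among the other matrix genes, the large proteoglycan VCAN read 939, 670 and 558 CPM under flow and 120 and 205 CPM in static vessels (2.15 ± 0.38, edgeR adjusted p = 0.0169). The hyaluronan synthase HAS2, which has no position in the table used here, rose by 3.37 ± 0.66 (adjusted p = 0.0263), the collagen-binding proteoglycan FMOD by 2.43 ± 0.48 (adjusted p = 0.0277), the collagen prolyl hydroxylase subunit P4HA3 by 2.10 ± 0.36 (adjusted p = 0.0164) and the thrombospondin THBS3 by 1.94 ± 0.33 (adjusted p = 0.0149). VCAN, HAS2 and FMOD had flow libraries above both static libraries, as had all 181 genes that rose, against 14.4% of all genes tested. When static replicate 1 was left out, these matrix genes gave adjusted p from 0.0833 for THBS3 and 0.0840 for FMOD to 0.318 for COL5A2, with 0.1002 for P4HA3, 0.129 for VCAN, 0.186 for COL11A1 and 0.186 for HAS2. Without flow replicate 2, COL11A1, FMOD and HAS2 were not called (0.0706, 0.0635 and 0.0668), and COL5A2 lost its call when any 1 of the 3 flow libraries was left out (0.0631 to 0.122). THBS3 and HAS2 were chosen after their values were seen.

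Few protease and inhibitor genes passed the test, in both directions. MMP9 (chromosome 17, 48179690 to 48186782), the gelatinase that cleaves basement membrane collagen, read 201, 141 and 243 CPM under flow and 26.9 and 5.35 CPM in static vessels, while native vessels were at 0.130 and 0.0575 CPM. MMP9 rose by 3.59 ± 0.67 (edgeR adjusted p = 0.0209), and by 5.18 without static replicate 1 (adjusted p = 0.0146). The metalloproteinase inhibitor TIMP1, an X-linked gene chosen after its values were seen, read 2288, 2446 and 3402 CPM against 735 and 438 CPM (2.21 ± 0.38, adjusted p = 0.0159). Both genes were called whichever library was left out, and they were the called members among 18 measured metalloproteinases and TIMPs, of which 8 were positive and 10 negative (median -0.04, or 0.345 without static replicate 1). Among 16 plasminogen and coagulation genes 2 rose and 1 fell. The serine protease inhibitor TFPI2 read 315, 404 and 362 CPM against 33.4 and 59.6 CPM (2.96 ± 0.48, adjusted p = 0.0132), tissue plasminogen activator PLAT rose by 1.56 ± 0.33 (adjusted p = 0.0330) and the thrombin receptor F2R fell by 1.51 ± 0.27 (adjusted p = 0.0188). Of 18 ADAMTS proteases ADAMTS6 rose by 2.13 ± 0.38 (adjusted p = 0.0187) and ADAMTS15 fell by 2.80 ± 0.58 (adjusted p = 0.0316). In the fit without static replicate 1, the adjusted p was 0.103 for TFPI2, 0.134 for F2R, 0.0966 for ADAMTS6 and 0.0592 for ADAMTS15. PLAT was not called without static replicate 2 (0.0933) or flow replicate 2 (0.0819), F2R without flow replicate 2 (0.0566), ADAMTS6 without static replicate 2 (0.0512), and ADAMTS15 without static replicate 2, flow replicate 2 or flow replicate 3 (0.0684, 0.112 and 0.0690).

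Genes that respond to mechanical load through YAP and MRTF were represented by 24 measured targets, of which 3 rose and 0 fell (12.5% called, median 0.51, or 0.27 without static replicate 1). The matricellular protein CCN2 read 586, 459 and 629 CPM under flow and 50.4 and 93.3 CPM in static vessels, with native vessels at 266.5 and 323 CPM (2.96 ± 0.41, edgeR adjusted p = 0.00705). CCN1, its relative, which like CCN3 has no position here, read 830, 203 and 696 CPM against 62.2 and 99.0 CPM (2.84 ± 0.53, adjusted p = 0.0206). The tropomyosin TPM4 read 2323, 2081 and 1736 CPM against 379 and 594 CPM (2.07 ± 0.32, adjusted p = 0.0112). All 3 genes were lower in both static libraries than in any flow or native library. They are also among the 5 rises of the synthetic smooth muscle and matricellular list, so the 2 lists are not separate results. CCN3, chosen after its values were seen, rose by 2.92 ± 0.66 (adjusted p = 0.0446). Without static replicate 1 these 4 were not called (0.0516 for CCN2, 0.0888 for TPM4, 0.159 for CCN1 and 0.253 for CCN3), nor was CCN3 without flow replicate 1 or 2 (0.0683 and 0.0633).

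Contractile smooth muscle genes gave a positive median (0.67) that rested on static replicate 1. Of 20 measured members ACTG2 alone rose and 0 fell (5% called, against 2.85% of all genes). Without static replicate 1 the median was 0.06. The smooth muscle actin gene ACTG2 read 458, 352 and 652 CPM under flow, 5.41 CPM in static replicate 1 and 47.3 CPM in static replicate 2 (4.21 ± 0.84, edgeR adjusted p = 0.0280, or 0.0573 without static replicate 1). ACTA2, the alpha actin of smooth muscle, read 3022, 2161 and 2415 CPM under flow against 42.6 and 624 CPM and did not pass the test (2.93 ± 0.87, adjusted p = 0.0967). ACTA2 did pass without static replicate 2 (adjusted p = 0.00155), which leaves the lower static library alone. Calponin, CNN1, read 362, 205 and 288 CPM against 24.7 and 192 CPM (adjusted p = 0.400). Myosin heavy chain MYH11 overlapped, at 934, 468 and 280 CPM against 65.5 and 685 CPM (0.58 ± 0.99, adjusted p = 0.808), and its log2 fold change was -0.31 without static replicate 1. Native vessels read 11140 and 12610 CPM for MYH11, above every stented library.

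Of 19 measured osteochondrogenic genes 4 rose and 1 fell (26.3% called, median 1.40). The vitamin D receptor VDR read 74.8, 108.3 and 142 CPM under flow and 15.3 and 22.4 CPM in static vessels, with native vessels below 1 CPM at 0.716 and 0.978 (2.52 ± 0.34, edgeR adjusted p = 0.00611). RUNX2, the transcription factor of bone formation, read 106, 44.4 and 37.1 CPM against 15.1 and 15.9 CPM (2.01 ± 0.43, adjusted p = 0.0348). The members that moved included suppressors of mineral deposition. ENPP1, which makes the mineralization inhibitor pyrophosphate, rose by 2.05 ± 0.34 (adjusted p = 0.0143), and ANKH, chosen after its values were seen, which exports it or its precursor, rose by 1.82 ± 0.27 (adjusted p = 0.00978). ALPL, the phosphatase that degrades pyrophosphate, was the member that fell, from 8.58 and 1.64 CPM in static vessels to 0.0718, 0.729 and 0.234 CPM (-3.85 ± 0.88, adjusted p = 0.0448). Osteopontin, SPP1, read 226, 149 and 429 CPM against 135 and 67.6 CPM and did not pass the test (adjusted p = 0.165). When static replicate 1 was left out, the adjusted p was 0.0541 for VDR, 0.0640 for ANKH, 0.104 for ENPP1, 0.198 for RUNX2 and 0.395 for ALPL. RUNX2 was not called without static replicate 2 or flow replicate 2 (0.0718 and 0.0503), and ALPL lost its call when any 1 flow library was left out (0.0536 to 0.0902).

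Cell cycle genes had a positive sign in 38 of 40 cases with a median of 1.38, but 1 passed the test (2.5% called, against 2.85% of all genes). By edgeR 24 of the 40 had an unadjusted p under 0.05, and DESeq2 called 12. All 3 flow libraries lay above both static ones for 18 of them, against 14.4% of all genes. RRM1, the large subunit of ribonucleotide reductase, read 70.9, 71.2 and 81.4 CPM under flow and 32.3 and 40.8 CPM in static vessels (1.03 ± 0.24, edgeR adjusted p = 0.0485). It lost this call whichever of the 5 libraries was left out (0.0585 to 0.320). The list's median was 2.31 for flow replicate 3 over static replicate 1 and 0.66 for flow replicates 1 and 2 over static replicate 2. Without static replicate 1 it was 1.02. The list's mean log2 CPM was 2.59 and 3.34 in the static libraries and 3.43, 4.36 and 4.78 in the flow libraries. Flow replicate 1 thus lay close to static replicate 2. Other genes that were called in every leave-out were chosen after their values were seen. The homeobox factor MEIS1 rose by 2.95 ± 0.40 (adjusted p = 0.00705), the proapoptotic PMAIP1 by 2.49 ± 0.35 (adjusted p = 0.00731) and the surface protein CDCP1 by 3.39 ± 0.65 (adjusted p = 0.0240). MEIS1 read 53.7, 49.5 and 69.2 CPM under flow and 4.43 and 10.5 CPM in static vessels. NT5E, the ectonucleotidase that makes adenosine, rose by 3.73 ± 0.60 (adjusted p = 0.0123, or 0.0988 without static replicate 1). The transcription factor SNAI1, a driver of mesenchymal transition, rose by 2.29 ± 0.46 (adjusted p = 0.0285), and was not called without static replicate 1 or 2 or flow replicate 2 (0.126, 0.0838 and 0.0668). NT5E and SNAI1 were also chosen after their values were seen.

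**Figure D3:**
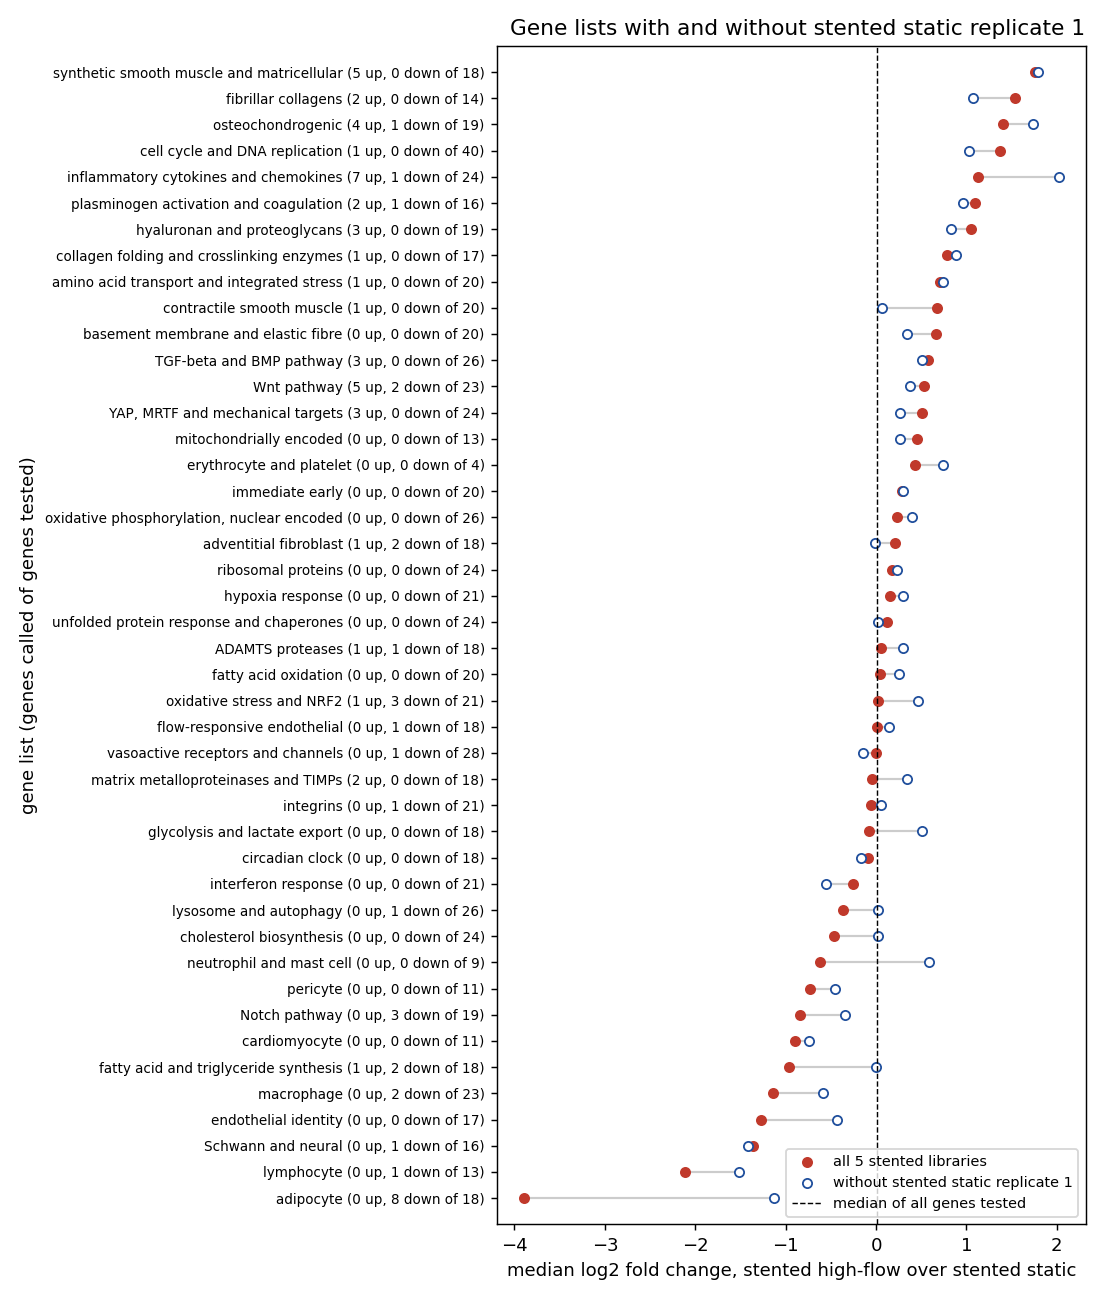
Median log2 fold change of flow over static (horizontal axis) for each of the 44 gene lists (vertical axis, with the genes called of those tested), over all 5 stented libraries (filled points) and without static replicate 1 (open points); the dashed line is the median of all genes tested. The adipocyte list moves from -3.89 to -1.13 and the contractile list from 0.67 to 0.06, while the synthetic and matricellular list stays at 1.76 and 1.79.

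The flow-sensitive endothelial genes did not separate the groups as a list. Of 18 measured, 0 rose and 1 fell (5.56% called, median 0.01, or 0.14 without static replicate 1). KLF2, the transcription factor induced by laminar shear, read 79.9, 69.6 and 89.6 CPM under flow and 108.4 and 29.3 CPM in static vessels (edgeR adjusted p = 0.851). KLF4, its partner, read 44.4, 70.5 and 61.3 CPM against 50.3 and 57.1 CPM (adjusted p = 0.866). Both genes overlapped between the groups and were several times higher in native vessels, at 338 and 354 CPM for KLF2 and 449 and 438 CPM for KLF4. Endothelial nitric oxide synthase, NOS3, read 14.7, 17.3 and 15.3 CPM under flow, 75.2 CPM in static replicate 1 and 11.6 CPM in static replicate 2 (adjusted p = 0.197). The sign for NOS3 was -1.46 with all libraries and 0.44 without static replicate 1, and without static replicate 2 it passed the test, at -2.24 (adjusted p = 0.00825). PECAM1, the endothelial adhesion molecule, read 104, 181 and 118 CPM against 513 and 218 CPM (-1.45 ± 0.38, adjusted p = 0.0698, or 0.0158 without static replicate 2).

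The member that fell was PLPP3 (chromosome 6, 155800838 to 155894919), the phosphatase that degrades lysophosphatidic acid, at 207, 264.1 and 225 CPM under flow against 633 and 736 CPM in static vessels. PLPP3 fell by 1.56 ± 0.24 (edgeR adjusted p = 0.0112) and was called in every leave-out. Of 19 Notch pathway genes 0 rose and 3 fell (15.8% called, median -0.84, or -0.34 without static replicate 1). The target gene HES4 read 11.9, 8.58 and 5.06 CPM under flow against 45.5 and 38.3 CPM (-2.30 ± 0.34, adjusted p = 0.00937) and kept its call in every leave-out. The endothelial ligand DLL4 fell by 1.66 ± 0.39 and the glycosyltransferase MFNG, which modifies Notch, by 2.84 ± 0.56 (adjusted p = 0.0485 and 0.0263). MFNG read 55.4 CPM in static replicate 1 and 9.85 CPM in static replicate 2, and DLL4 68.6 and 30.6 CPM. In the fit without static replicate 1, their adjusted p-values were 0.408 for DLL4 and 0.314 for MFNG, without flow replicate 1 they were 0.0954 and 0.0575, and without flow replicate 2 they were 0.151 and 0.0819. Among genes chosen after their values were seen, RAPGEF3, the cyclic AMP sensor EPAC1, read 6.601, 7.63 and 5.53 CPM against 48.2 and 41.1 CPM (-2.76 ± 0.36, adjusted p = 0.00583) and was called in every leave-out. The arterial connexin GJA4 fell by 3.06 ± 0.63 (adjusted p = 0.0312), with 54.5 CPM in static replicate 1 and 11.4 CPM in static replicate 2 (0.321 without static replicate 1 and 0.0832 without flow replicate 2).

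Other falls were seen in both static libraries. NTRK2 (chromosome 10, 30030050 to 30429938), the receptor of brain-derived neurotrophic factor, read 2.51, 4.66 and 3.84 CPM under flow and 63.9 and 143 CPM in static vessels, with native vessels at 192 and 215 CPM. The flow libraries were the low ones, and static and native libraries lay within a few-fold of each other. NTRK2 fell by 4.81 ± 0.39 (edgeR adjusted p = 0.000518), and without static replicate 1 the adjusted p was 0.000172. FGL2 (chromosome 9, 102869044 to 102875564), a fibrinogen-like protein with prothrombinase activity, read 51.2, 64.7 and 60.7 CPM under flow and 290 and 736 CPM in static vessels (-3.12 ± 0.43, adjusted p = 0.00705, and 0.00524 without static replicate 1). Genes chosen after their values were seen gave further falls that were called in every leave-out. The laminin chain LAMA3 fell by 3.28 ± 0.52 (adjusted p = 0.0115), the water and glycerol channel AQP3 by 2.98 ± 0.47 (adjusted p = 0.0115), the guidance factor SLIT2 by 1.84 ± 0.34 (adjusted p = 0.0202) and the glucocorticoid-responsive factor KLF15 by 2.01 ± 0.30 (adjusted p = 0.00937). KLF15 read 57.3 and 53.3 CPM in static vessels against 12.2, 12.9 and 16.3 CPM under flow and 16.1 and 12.1 CPM in native vessels, so here static vessels were the high ones.

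**Figure D4:**
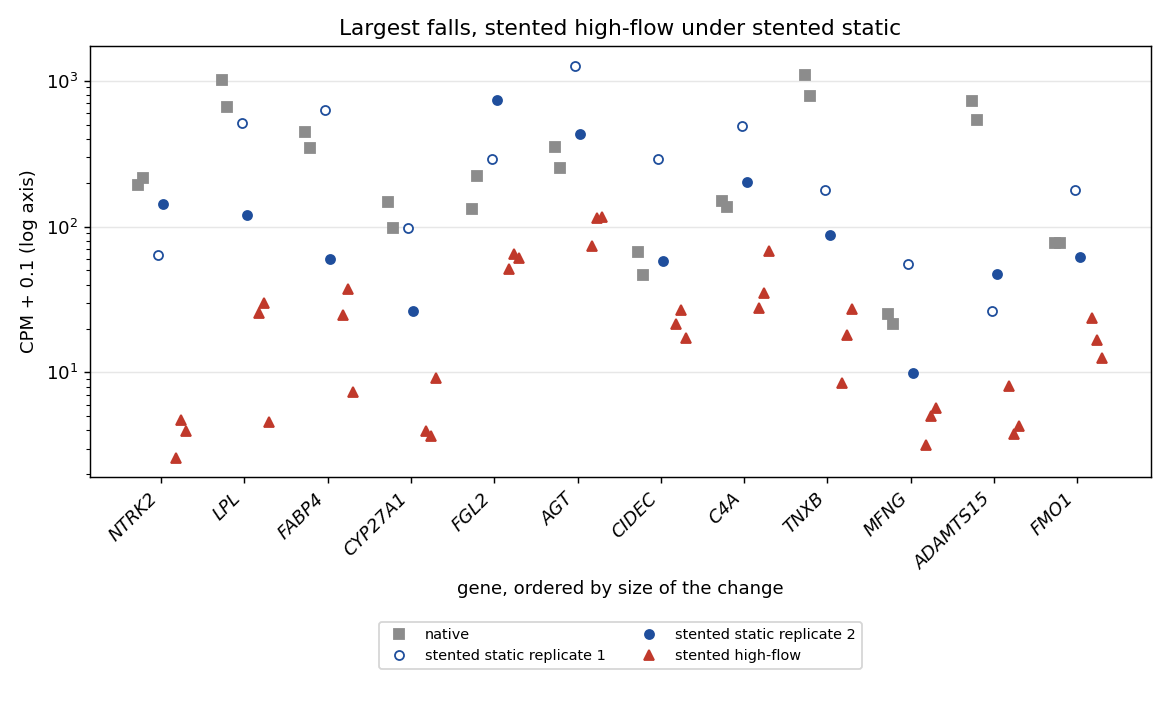
CPM + 0.1 on a log axis (vertical) of the 12 autosomal genes with the largest falls (horizontal axis), 1 point per library, for native (squares), static replicate 1 (open circles), static replicate 2 (filled circles) and flow libraries (triangles). NTRK2 and FGL2 are high in both static libraries, while FABP4 reads 629 CPM in static replicate 1 and 59.6 CPM in static replicate 2.

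Among complement genes C4A fell, and so did C2, CFB and C7, which were chosen after their values were seen. No complement list was set beforehand, so the share of such genes that fell is not given. Over all genes 1.67% fell. C4A (chromosome 7, 24068019 to 24083060), a component of the classical pathway, read 27.6, 34.7 and 67.9 CPM under flow and 485 and 203 CPM in static vessels, with native vessels between at 149 and 135 CPM. C4A fell by 2.99 ± 0.43 (edgeR adjusted p = 0.00786) and was called in every leave-out. The neighbouring C2 and CFB fell by 2.03 ± 0.40 and 1.95 ± 0.43 (adjusted p = 0.0262 and 0.0378), and the terminal component C7 by 1.75 ± 0.38 (adjusted p = 0.0362). Other measured complement genes did not pass the test, among them C3, at -1.19 ± 0.47 (adjusted p = 0.192), and CFD, which overlapped between the groups at -0.95 ± 0.61 (adjusted p = 0.436, and 0.77 without static replicate 1). TNXB, the tenascin gene that lies next to C4A, read 8.40, 18.1 and 27.1 CPM against 178 and 87.2 CPM and fell by 2.89 ± 0.46 (adjusted p = 0.0123), while native vessels stood at 1099 and 779 CPM. The sources used here do not say how reads of C4A and TNXB were divided among any near-identical gene copies, so their values are uncertain to that extent. Without static replicate 1 the adjusted p was 0.0816 for TNXB, 0.134 for C7, 0.193 for CFB and 0.233 for C2. Without flow replicate 2, C2, CFB and C7 were not called (0.0945, 0.0822 and 0.121), and C7 was not called without static replicate 2 or flow replicate 3 (0.0554 and 0.0754).

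The metallothionein genes MT1X and MT3, whose products bind zinc and copper, fell. MT1X, chosen after its values were seen, read 2247 CPM in static replicate 1 and 291 CPM in static replicate 2, against 38.1, 13.6 and 37.1 CPM under flow and 5.21 and 6.39 CPM in native vessels (-5.42 ± 0.78, edgeR adjusted p = 0.00819). It was called in every leave-out, but it belongs to a family of near-identical genes, has no position in the table used here, and reads could be split among copies. MT3 was low throughout, at 1.74 and 0.973 CPM in static and 2.21 and 1.32 CPM in native vessels. It had 60 counts in the static libraries and 1 in the flow libraries, a ratio of pooled CPM of 76.3 (95% interval 13.2 to 3065, counting error only). The haem-degrading enzyme HMOX1, which is not placed on a chromosome here and was chosen after its values were seen, read 376 and 418 CPM in static vessels against 61.6, 152 and 122 CPM under flow (-1.82 ± 0.36, adjusted p = 0.0284). The oxidative stress list held these 3 falls and 1 rise among 21 measured genes (19% called, against 2.85% of all genes). Its median was 0.02, or 0.46 without static replicate 1. The rise was SLC7A11, the cystine importer, which read 63.4, 44.8 and 29.1 CPM under flow and 6.13 and 15.0 CPM in static vessels (2.12 ± 0.46, adjusted p = 0.0362). When static replicate 1 was left out, the adjusted p was 0.0988 for HMOX1, 0.0988 for MT3 and 0.226 for SLC7A11. HMOX1 was not called without static replicate 2 (0.0509), MT3 without flow replicate 2 (0.0602) and SLC7A11 without flow replicate 1 or 2 (0.0609 and 0.0855).

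Several falls were larger in static replicate 1 than in static replicate 2, beside the marker levels of other cell types given above. AGT, angiotensinogen, read 1269 and 431 CPM in static vessels and 73.9, 115 and 116 CPM under flow (-3.06 ± 0.46, edgeR adjusted p = 0.00937). CYP27A1, the sterol hydroxylase, fell by 3.48 ± 0.54, the monooxygenase FMO1 by 2.77 ± 0.46 and the natriuretic peptide receptor NPR1 by 1.95 ± 0.37 (adjusted p = 0.0112, 0.0134 and 0.0233). GSN, the actin-severing protein gelsolin, read 3555 and 2215 CPM against 447, 598 and 405 CPM (-2.58 ± 0.40, adjusted p = 0.0110), and the adventitial marker CLEC3B fell by 2.71 ± 0.57 (adjusted p = 0.0336). All of these kept a negative sign without static replicate 1, where their adjusted p-values were 0.0524 for AGT, 0.0592 for GSN, 0.0664 for CYP27A1, 0.0910 for FMO1, 0.194 for NPR1 and 0.233 for CLEC3B. FMO1 was not called without flow replicate 2 (0.0503), nor CLEC3B without flow replicate 3 (0.0698). GSN and CLEC3B were the 2 falls among 18 measured adventitial fibroblast genes, of which 1 rose, SFRP2, given above with the Wnt genes. The share called was 16.7% of that list, against 2.85% of all genes. The list did not fall as a whole, with 11 members positive, 7 negative and a median of 0.21, or -0.01 without static replicate 1.

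Of 23 macrophage markers 2 fell and 0 rose (8.70% called, median -1.14, or -0.59 without static replicate 1), and 21 of 23 had a negative sign. The scavenger receptor CD163 read 1075 and 445 CPM in static vessels and 177, 147 and 281 CPM under flow (-1.92 ± 0.45, edgeR adjusted p = 0.0488). GPNMB, a glycoprotein of lipid-laden macrophages, fell by 2.06 ± 0.43 (adjusted p = 0.0333). Of 16 Schwann and neural markers 1 fell (6.25% called), the myelin gene MBP, at -2.21 ± 0.41 (adjusted p = 0.0199). Of these 16 markers 12 were lower in all flow libraries than in both static ones, against 15.7% of all genes. Their median was -1.36 with all libraries and -1.42 without static replicate 1. Of 13 lymphocyte markers CD4 fell (7.69% called, against 2.85% of all genes). CD4 had 57 counts in the static libraries and 2 in the flow libraries. Of 17 endothelial identity genes edgeR called 0, with 12 at an unadjusted p under 0.05 and 7 called by DESeq2, and 15 were negative, with a median of -1.27, or -0.43 without static replicate 1. In the fit without static replicate 1, the adjusted p was 0.381 for CD163, 0.237 for GPNMB, 0.178 for MBP and 0.371 for CD4. CD163 and GPNMB lost their calls without flow replicate 1 (0.0954 and 0.0575), all 4 without flow replicate 2 (0.154, 0.116, 0.0614 and 0.142), and GPNMB and CD4 without flow replicate 3 (0.0554 and 0.0919).

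Adipocyte genes gave the most negative list, and the result rested on 1 library. Of 18 measured markers 8 fell and 0 rose (44.4% called, median -3.89), but without static replicate 1 0 were called and the median was -1.13. Adiponectin, ADIPOQ, read 765 CPM in static replicate 1, 0.852 CPM in static replicate 2 and 0.144, 0.112 and 0.281 CPM under flow, and the lipid droplet protein PLIN1 read 185 and 0.608 CPM against 0.0468 to 0.287 CPM. Static replicate 2 was thus close to the flow libraries for these genes and static replicate 1 close to native vessels, where ADIPOQ was 1075 and 615 CPM. Leptin, LEP, read 9.60 CPM in static replicate 1 and 0 in static replicate 2, and did not pass the test (edgeR adjusted p = 0.133). The gluconeogenic enzyme PCK1 read 132 CPM in static replicate 1 and 0 in static replicate 2, so that its log2 fold change was -7.79 with all libraries and 5.51 without static replicate 1. For all of the other named adipocyte genes static replicate 2 lay above the flow libraries and below static replicate 1. The lipase LPL read 509 and 120 CPM against 25.4, 29.7 and 4.45 CPM (-3.99 ± 0.72, adjusted p = 0.0187, or 0.125 without static replicate 1). The fatty acid carrier FABP4 read 629 and 59.6 CPM against 24.8, 37.3 and 7.21 CPM, the lipid droplet protein CIDEC 289 and 58.0 CPM against 21.5, 26.7 and 17.2 CPM, and the adipogenic regulator PPARG 42.9 and 3.83 CPM against 1.22, 1.68 and 1.03 CPM. Without static replicate 1 the adjusted p was 0.186 for PPARG, 0.362 for CIDEC, 0.484 for FABP4, 0.690 for PLIN1 and 0.708 for ADIPOQ. ADIPOQ, PLIN1, PCK1, FABP4 and CIDEC also lost their calls when any 1 flow library was left out (0.0656 for PLIN1 to 0.131 for PCK1), and PPARG without flow replicate 2 (0.0591).

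Triglyceride synthesis genes were high in the same library. Of 18 measured genes of fatty acid and triglyceride synthesis 1 rose and 2 fell (16.7% called), with a median of -0.96, or 0.00 without static replicate 1. The acyltransferase DGAT2 read 197 CPM in static replicate 1 and 0.243 CPM in static replicate 2 against 0 to 0.281 CPM under flow, and the lipogenic regulator THRSP 164 and 0.608 CPM against 0.0468 to 0.215 CPM. The malic enzyme ME1 rose by 1.41 ± 0.33 (edgeR adjusted p = 0.0468). When static replicate 1 was left out, the adjusted p was 0.938 for DGAT2, 0.674 for THRSP and 0.186 for ME1. DGAT2 and THRSP lost their calls when any 1 flow library was left out (0.0712 to 0.119), and ME1 was not called without static replicate 2, flow replicate 2 or flow replicate 3 (0.130, 0.133 and 0.0675).

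Among the remaining lists no gene passed edgeR's test for interferon response (21 measured), hypoxia (21), glycolysis and lactate export (18), nuclear-encoded oxidative phosphorylation (26), mitochondrially encoded genes (13), fatty acid oxidation (20), cholesterol biosynthesis (24), chaperones and the unfolded protein response (24), immediate early genes (20), basement membrane and elastic fibre (20), the circadian clock (18), ribosomal proteins (24), pericytes (11), cardiomyocytes (11), neutrophils and mast cells (9) or erythrocytes and platelets (4). Over these lists and the endothelial identity list, 301 places in all, 62 genes had an unadjusted p under 0.05, DESeq2 called 28 and limma-voom 1. The interferon list was negative in 17 of 21 genes with a median of -0.25 (-0.56 without static replicate 1). The oxidative phosphorylation list was positive in 24 of 26 with a median of 0.23 (0.39 without static replicate 1). Among integrins 4.76% were called, against 2.85% of all genes. Of 21 integrins ITGB4 fell by 1.38 ± 0.32 (adjusted p = 0.0475), and lost its call when any library but static replicate 2 was left out (0.0548 to 0.340). On simulated counts of this design the test recovered 3.45% of genes changed 2-fold, 52.3% of those changed 4-fold and 78.6% of those changed 8-fold. Over 5 draws of 14972 genes these were 319, 331 and 322 genes, a smaller share than was called in the real data. Fewer changed genes make the adjusted p stricter, so recovery in the real data may differ. The simulated libraries shared 1 mean per gene apart from the changes put in. None of them stood apart in whole marker lists, as static replicate 1 did in the data. In that setting changes near 2-fold were mostly not detected.

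The contrast was also read in disjoint libraries, flow replicate 3 over static replicate 1 and flow replicates 1 and 2 over static replicate 2, which separates the 2 ranges of label numbers. Since the genes were called on all 5 libraries, these values describe them and test nothing. PRSS35 had log2 fold changes of 7.20 and 7.33 in the 2 sets, INHBA 4.36 and 3.98, WNT5A 4.37 and 3.91, C4A -2.83 and -2.70 and TNXB -2.71 and -2.71, nearly equal in each case. ACTG2 had 6.92 and 3.10, a larger difference in the set with static replicate 1. Several fat genes differed more between the sets, with PLIN1 at -11.76 and -1.24, FABP4 at -6.44 and -0.94 and DGAT2 at -9.99 and -0.62. NTRK2 and FGL2 went the other way, with -4.05 and -5.30 and with -2.25 and -3.66. One called gene was high in static replicate 2 alone. HEPACAM, a glial adhesion molecule chosen after its values were seen, read 179 CPM there and 0.711 CPM in static replicate 1, against 0.281 to 1.12 CPM under flow (edgeR adjusted p = 0.0418, or 0.996 without static replicate 2).

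**Figure D5:**
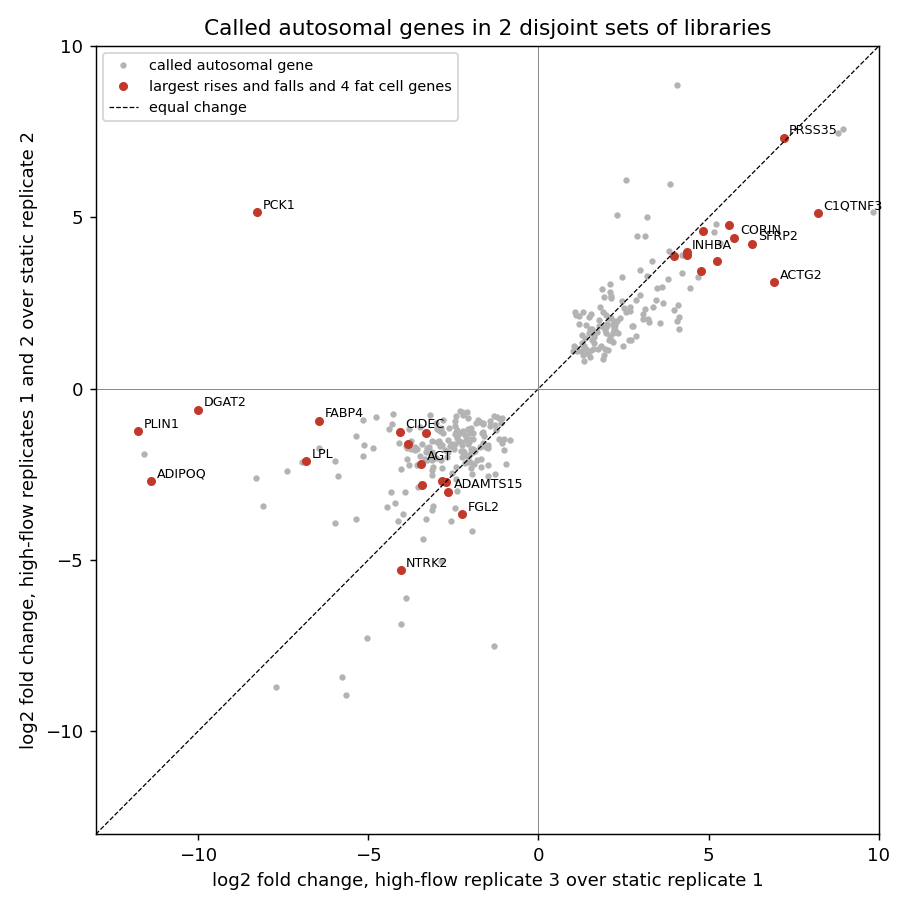
Log2 fold change of flow replicate 3 over static replicate 1 (horizontal axis) and of flow replicates 1 and 2 over static replicate 2 (vertical axis) for the 331 called autosomal genes (grey), with the largest rises and falls and 4 fat cell genes in red, some of them named; the dashed line marks equal change. PRSS35 lies on the line at 7.20 and 7.33, and PLIN1 lies far from it at -11.76 and -1.24.

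Some strong falls were in genes of low abundance, all chosen after their values were seen. KCNK5, an acid-sensitive potassium channel, read 18.0 and 2.92 CPM in static vessels and 0.0718, 0.281 and 0.281 CPM under flow (-5.54 ± 0.80, edgeR adjusted p = 0.00819). PLPP4, a lipid phosphatase, had 119 counts in the static libraries and 1 in the flow libraries, a ratio of pooled CPM of 151 (95% interval 26.7 to 6029, counting error only), and STUM, whose role is not well described, had a ratio of 137 (24.1 to 5477). All 3 genes were called in every leave-out, and native vessels held PLPP4 and STUM at 5.41 to 7.19 CPM, above the static libraries.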

How the data were processed

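Porcine coronary artery RNA was sequenced in 11 libraries. The authors deposited raw gene counts in 2 tables that share the native columns, and these counts were used as deposited. The submitters' processing notes name Trimmomatic, FastQC, DESeq2 and Sscrofa11.1. The aligner, counter, strand setting and annotation were not given in the sources used here. Lists by the authors of genes changed against native were not used.

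Groups came from the sample titles. Counts were fitted in R 4.3.3 with edgeR 4.0.16 (filterByExpr, TMM scaling, quasi-likelihood F-test) in 1 model of 5 groups and 11 libraries, with Benjamini-Hochberg adjustment at 0.05 over 15348 genes. Common dispersion was 0.126, with 6 residual degrees of freedom. A prior count of 2 entered log2 CPM. The alternatives used DESeq2 1.42.0 and limma-voom 3.58.1, other filters, scalings and subsets, a replicate block, a term for the label number range and leave-outs. The procedure was tested on simulated data (5 draws, 14972 genes).

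Symbols matched 14855 of 25880 identifiers, and positions are RefSeq's in Sscrofa11.1, matched by symbol. The INHBA record there is not a standard protein-coding gene record, so no position is printed for it, and its autosomal placement rests on that record. Totals were 13496636 to 26785124 counts per library. Intervals and floors cover counting error only.

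The members and the 44 lists (895 of 1006 entries matched) were chosen with earlier results of these data known. Named genes were, of 201 called autosomal genes with a symbol, non-overlapping groups and log2 CPM averaging 3 or more over the stented libraries, the 12 that rose most and the 12 that fell most, up to 4 called autosomal members per list, and a set of followed genes. Others are marked as chosen after their values were seen.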

Additional observations from a re-analysis of the deposited data

How the results depend on the processing

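The count of 438 genes was 1376 with DESeq2, 1003 with no low-count filter, 60 at an adjusted p of 0.01, 160 with the 7 libraries of 1 count table and 32 with the 5 stented libraries alone, where fewer degrees of freedom are left. With a term for the label number range it was 773, and within the ranges 398 for flow replicate 3 over static replicate 1 and 119 for flow replicates 1 and 2 over static replicate 2. Leaving out each library gave 95 (without static replicate 1) to 784 (without static replicate 2), with 175 without flow replicate 2. The cause was not tested. A replicate block gave 185 genes. The labels do not say whether replicate numbers pair libraries. Deviations of same-numbered libraries correlated at -0.32 and 0.11. With 2 static libraries their deviations mirror each other, so each value comes with its opposite and cannot decide on pairing. Static replicate 1 and flow replicate 3, which share the label number range, correlated at 0.41. Static replicate 2 and flow replicate 3 therefore stood at -0.41.

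Signs turned for genes that were mostly not called. Over the leave-outs the log2 fold change of MYH11 ranged from -0.31 (without static replicate 1) to 3.09, with -0.01 without flow replicate 1, KLF2 from -0.44 (without static replicate 2) to 1.44, KLF4 from -0.02 (without flow replicate 2) to 0.30, EGFR from -0.81 to 0.15 (without static replicate 2) and HEPACAM from -7.96 to 0.024 (without static replicate 2). The highest values without static replicate 1 were 0.44 for NOS3, 3.25 for LEP and 5.51 for PCK1, and their lowest were -2.24, -9.59 and -8.77. KLF2 was -0.27 for flow replicate 3 over static replicate 1. For flow replicates 1 and 2 over static replicate 2, NOS3 was 0.48, LEP 0.00 and PCK1 5.15. Of 121 named genes, 118 kept direction and call with DESeq2 and with RLE size factors, 97 with limma-voom, 39 without static replicate 1 and 27 with the 5 stented libraries alone, where 90 lost their call.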
